A study of Mus musculus with 3 samples.

Results

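The hedgehog pathway was examined through 7 genes: the receptor genes Ptch1 and Smo, the ligand-binding inhibitor gene Hhip, the intracellular inhibitor gene Sufu, and Gli1, Gli2 and Gli3, which encode the transcription factors of the pathway. All 7 were measured, by 9 probes with a value on every array, out of 14047 genes and 19660 probes. Members were taken by gene symbol from the platform annotation, from probes with 1 symbol only. Ptch1 and Sufu had 2 probes each, and the other genes had 1.

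The samples were kidney primordia of CD1 mouse embryos, pooled over both sexes and obtained by microdissection. Each of 3 two-colour oligonucleotide arrays compared metanephroi at 11.5 days post coitum (dpc), held in channel 2, with metanephric mesenchyme at 10.5 dpc, held in channel 1. Both RNAs were amplified and coupled to amino allyl dyes, with red/green as the labelled dye order of arrays 1 and 2 and green/red as that of array 3. No genotype, transgene or treatment is named in the labels, which also do not say whether the arrays came from separate dissections. The p-values therefore weigh a mean ratio only against the spread between arrays, and that spread may be technical.

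In the absence of ligand, Patched at the primary cilium holds Smoothened inactive, and the GLI2 and GLI3 proteins are processed or retained with the help of SUFU. Hedgehog ligand binds Patched, Smoothened enters the cilium, and full-length GLI proteins activate genes that include Ptch1, Gli1 and Hhip themselves. In the developing urinary tract Shh is made by ureter epithelium and received by the mesenchyme around it, and GLI3 in its repressor form is needed for normal kidney development.

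A value here is a log2 ratio of the channels of an array, as the authors normalized it. The sources used here do not give the numerator, so the tissue with more RNA cannot be named for either sign, and values are called only positive or negative. The sign of array 3 was used as deposited. Whether the submitters had turned that dye-swapped array is not given, and values with its sign turned are given beside those as deposited. Across 19660 probes, which are not independent replicates, array 3 had a Spearman correlation of 0.211 with array 1 and 0.171 with array 2, while arrays 1 and 2 had 0.466. The Pearson correlations of array 3 were 0.0517 and 0.0148. Of 70 measured marker genes of the tissues that these dissections could hold, 48 had the same sign on all 3 arrays as deposited and 9 did with array 3 turned. Over all genes those shares were 45.5% and 25.6%. The arrays thus agreed in sign more often with array 3 as deposited, in the markers and over all genes. Values as deposited are therefore the main ones, and those with array 3 turned are a check rather than an equal alternative.

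Ptch1, Hhip, Gli1 and Smo were negative on all 3 arrays in the gene averages, and no member was positive on all 3. The largest means were those of Hhip, at -0.99 ± 0.98 (SD, n = 3), and Ptch1, at -0.77 ± 0.54, while Gli2 and Gli3 had means of 0.02 ± 0.14 and 0.10 ± 0.72. By limma, 0 of the 7 genes passed an adjusted p of 0.05 over all genes, where 0% of all genes passed, and the members' adjusted p ran from 0.242 to 0.954. At an unadjusted p under 0.05 there was 1 member, Ptch1, where 19.6% of all genes passed and 9.69% passed on the negative side. The 4 of 7 members negative on every array stand beside 22.5% of all genes. The median of the members was -0.22, beside -0.0019 over all genes. With the sign of array 3 turned it was -0.06 and 1 of the 7, Gli3, kept 1 sign over the arrays. It was -0.31 without array 1 and -0.18 without array 2. In whole-tissue RNA, fewer cells of a type and less RNA per cell cannot be told apart.

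**Figure D1:**
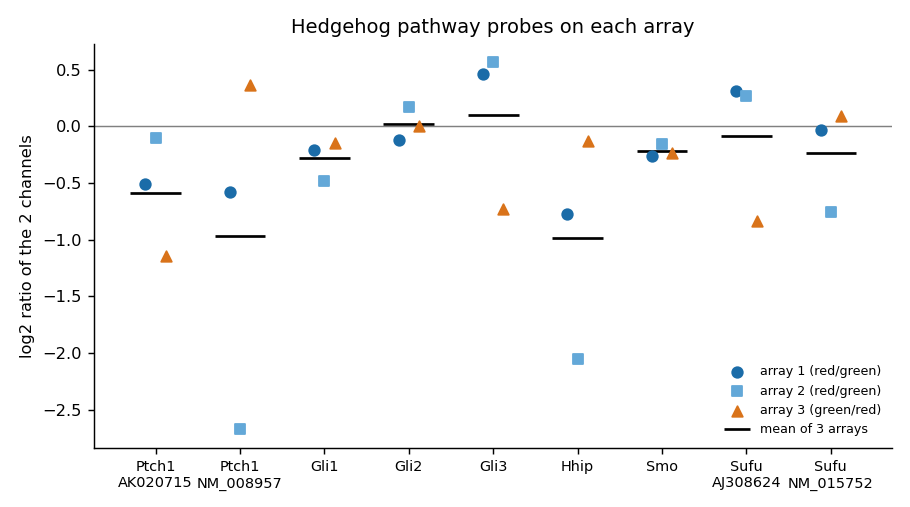
Log2 ratio of the channels (y axis) for the 9 probes of the 7 hedgehog genes, with a symbol for each array, its dye order in the legend, and a bar at the mean of the 3 arrays. The Ptch1 probe to the RefSeq transcript NM_008957 and the Hhip probe lie lowest on array 2, at -2.67 and -2.05, and the 3 values of Smo lie within 0.104 of each other.

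Ptch1 encodes the Patched receptor, which restrains Smoothened and is itself a target of GLI activity. Its probe to NM_008957 had -0.58 on array 1, and its values on arrays 2 and 3 were -2.67 and 0.36. Its probe to AK020715, a cDNA clone, had -0.51, -0.10 and -1.15 on the same arrays. The probes lay close together on array 1 only, and on arrays 2 and 3 the array that was low for one was the high one for the other. The NM_008957 probe had a mean of -0.96 ± 1.55 with a 95% interval of -2.87 to 0.95 and an adjusted p of 0.510 over all probes by limma. Its mean was -0.11 without array 2, -1.63 without array 3 and -1.21 with array 3 turned, so that array 2 decided most of its size. The AK020715 probe had -0.59 ± 0.53, an interval of -1.33 to 0.16 and an adjusted p of 0.358. Over all probes 0% passed the adjusted threshold and 17.5% had an unadjusted p under 0.05 by limma. Neither Ptch1 probe did, at 0.229 for NM_008957 and 0.0945 for AK020715.

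The average of both probes was -0.54, -1.39 and -0.39 on arrays 1, 2 and 3. This average varied less over the arrays than the NM_008957 probe did, because the probes differ in opposite directions on arrays 2 and 3. It gave an unadjusted p of 0.0436 and an adjusted p of 0.242 by limma, with a 95% interval of -1.51 to -0.04, which as a ratio is 0.351 to 0.975. The size of the mean corresponds to a 1.71-fold difference. Turning array 3 gave a mean of -0.51, with an unadjusted p of 0.263 by limma, and the AK020715 probe moved to 0.18.

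The disagreement between the Ptch1 probes was set beside that of all 798 genes measured by exactly 2 probes. On array 2 the Ptch1 probes differed by 2.57, at or above 93.4% of those genes, and on array 3 by 1.51, at or above 83.0%. On array 1 they differed by 0.0757, where the median gene had 0.588. Averaged over arrays the size of the difference was 1.38 for Ptch1 and 0.760 for Sufu, with a median of 0.753. Ptch1 thus lay toward the discordant end of such genes and Sufu near their middle.

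**Figure D2:**
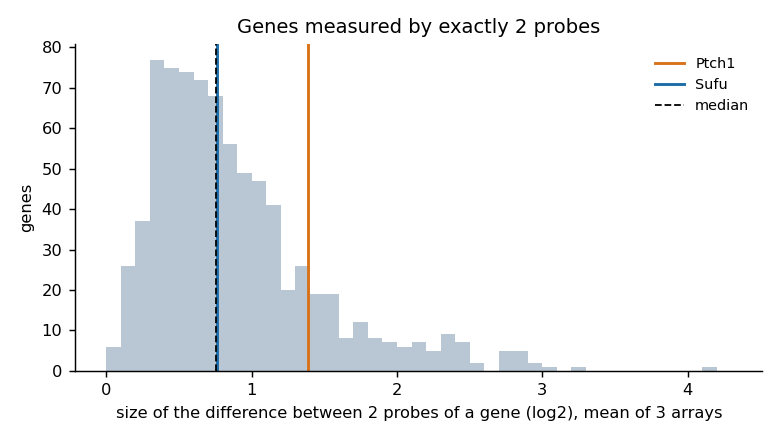
Histogram of the mean size, over 3 arrays, of the log2 difference between the probes of each of 798 genes with exactly 2 probes (x axis), with the number of genes on the y axis. Lines mark Ptch1 at 1.38, Sufu at 0.760 and the median at 0.753.

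Hhip encodes a membrane protein that binds hedgehog ligands and limits their range. Its single probe had values of -0.78, -2.05 and -0.13 on arrays 1, 2 and 3. All values were negative, but on array 2 the value lay below 96.7% of probes while on array 3 it lay near the middle. The 95% interval of the mean was -2.20 to 0.23, and the adjusted p was 0.318 over all genes by limma. Without array 2 the mean was -0.45, and with array 3 turned it was -0.90. Array 2 was thus the lowest for Hhip and for the NM_008957 probe of Ptch1.

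The bases before the start of Ptch1 and of Hhip are shown because these members had the largest mean ratios and both are known GLI target genes. They are the 250 bases before the RefSeq start in build GRCm38.p6, 5′ to 3′ on the gene's strand, with each CG dinucleotide in capitals. Ptch1 lies on the minus strand at chr13:63565736-63565985, and Hhip on the minus strand at chr8:80058009-80058258.
Ptch1: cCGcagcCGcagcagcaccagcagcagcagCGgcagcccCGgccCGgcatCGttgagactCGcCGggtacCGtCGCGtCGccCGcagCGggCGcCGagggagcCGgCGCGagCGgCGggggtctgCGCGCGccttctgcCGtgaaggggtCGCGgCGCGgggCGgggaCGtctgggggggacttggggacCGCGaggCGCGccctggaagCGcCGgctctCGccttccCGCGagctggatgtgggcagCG
Hhip: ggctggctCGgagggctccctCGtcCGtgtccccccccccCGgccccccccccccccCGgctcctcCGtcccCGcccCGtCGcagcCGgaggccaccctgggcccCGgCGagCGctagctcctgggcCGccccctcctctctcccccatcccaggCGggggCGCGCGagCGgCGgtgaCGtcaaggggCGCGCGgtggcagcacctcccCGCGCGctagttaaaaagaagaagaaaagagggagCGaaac
The Ptch1 stretch held 41 CG dinucleotides and the Hhip stretch 28, against a median of 6 over 32851 promoter entries. The same stretch of Gli3 held 34, that of Gli2 22, that of Smo 15 and that of Sufu 8. High counts were therefore not particular to the members shown. An exact match to the GLI binding motif TGGGTGGTC was sought on both strands of the 300 bases from 250 before to 50 after the start. It was found in 0 of the entries of the 6 members that have one, Ptch1, Gli2, Gli3, Hhip, Smo and Sufu, and in 0.253% of all entries. No match says only that these letters are not in this window.

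Smo encodes Smoothened, the transducer that Patched restrains. Its values were -0.26, -0.16 and -0.23 on the 3 arrays, and its SD of 0.05 was among the smallest of the table, with 2.46% of genes at or below it. The arrays agreed closely on a small negative value. The mean of -0.22 had a 95% interval of -0.60 to 0.16 and an adjusted p of 0.441 by limma, since the moderated test draws small SDs toward the common one. Taken by itself without moderation the same mean had an unadjusted p of 0.0194 and an adjusted p of 0.231. In that setting 2358 of 14047 genes had an unadjusted p under 0.05. Over all alternatives the adjusted p of Smo ran from 0.231 to 0.978. Turning array 3 gave -0.06.

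Gli1 encodes a GLI activator whose transcription depends on hedgehog signalling, so that its RNA is often read as a measure of the pathway. Its values on arrays 1, 2 and 3 were -0.21, -0.48 and -0.15, with array 2 again the lowest. The mean was -0.28 ± 0.18, its 95% interval ran from -0.71 to 0.15, and the adjusted p was 0.397 by limma. As a ratio the interval is 0.613 to 1.11. The mean was -0.18 with array 3 turned. Ptch1, Hhip and Gli1, the members known as GLI targets, were therefore negative on every array as gene averages, with array 2 the lowest for each, and none passed the adjusted threshold. Smo, which is not among them, was also negative on every array, as were 22.5% of all genes. The single probes of Ptch1 did not each show this. AK020715 was highest on array 2, at -0.10, and NM_008957 was positive on array 3, at 0.36.

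Gli2 encodes the main activator downstream of Smoothened in mouse embryos. Its values were -0.12, 0.17 and 0.00432 on the 3 arrays, on both sides of 0 and close to it. Its 95% interval of -0.39 to 0.43, a ratio of 0.762 to 1.35, bounds the difference more tightly than for Ptch1, Hhip or Gli3. The adjusted p was 0.954 by limma. The mean stayed at 0.02 with array 3 turned.

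Gli3 encodes the factor that acts mainly as a repressor of hedgehog targets. Its values on arrays 1, 2 and 3 were 0.47, 0.57 and -0.73. Arrays 1 and 2, which share a dye order, agreed, and array 3 had a value of similar size and the opposite sign. The mean of 0.10 had a 95% interval of -0.83 to 1.03 and an adjusted p of 0.887 by limma. With array 3 turned the mean was 0.59 ± 0.13 with an interval of 0.03 to 1.14. That gave an unadjusted p of 0.0421 and an adjusted p of 0.885 by limma, in a setting where 5.55% of all genes had an unadjusted p under 0.05. Without array 3 the mean was 0.52, with an adjusted p of 0.238 over all genes by limma. Over all the alternatives the adjusted p of Gli3 ran from 0.238 to 0.958. With a dye term, which weighs both dye orders equally, the mean was -0.11. The sign of Gli3 thus depended on how array 3 entered.

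Sufu encodes a protein that binds GLI factors and holds them inactive. Its probe to AJ308624 had 0.31, 0.26 and -0.83 on arrays 1, 2 and 3, and its probe to NM_015752 had -0.03, -0.75 and 0.09. The first probe had the same pattern of signs as Gli3, and the second did not. Averaged, Sufu had 0.14, -0.24 and -0.37 on arrays 1, 2 and 3, a mean of -0.16 ± 0.27 and an adjusted p of 0.646 by limma. Its 95% interval was -0.65 to 0.33. The mean moved to 0.09, on the other side of 0, with array 3 turned. The AJ308624 probe then had a mean of 0.47 and the NM_015752 probe -0.29.

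**Figure D3:**
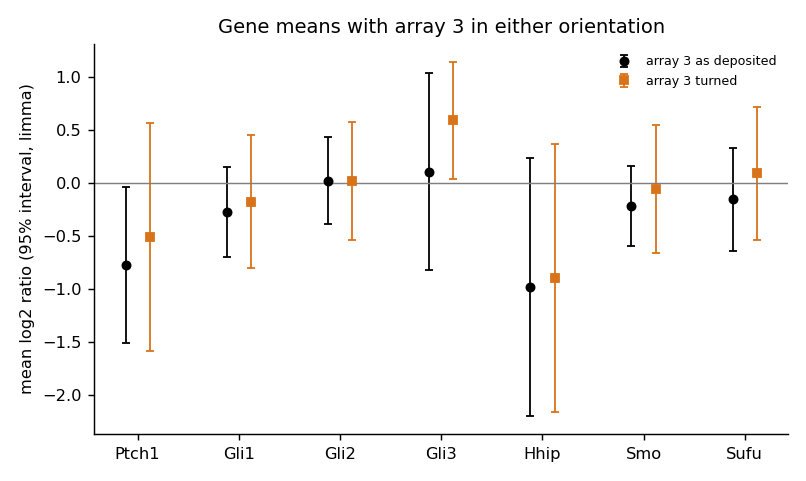
Mean log2 ratio over the 3 arrays (y axis) for each of the 7 genes with 95% intervals from limma, with array 3 as deposited (circles) and turned (squares). The interval of Ptch1 excludes 0 as deposited, and that of Gli3 excludes 0 with array 3 turned, before adjustment over genes.

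By the order of their means, from Hhip at -0.99 and Ptch1 at -0.77 through Gli1, Smo, Sufu and Gli2 to Gli3 at 0.10, neighbouring genes had overlapping intervals throughout. Gene profiles were also compared by Euclidean distance over the log2 ratios of the 3 arrays. For Ptch1, the member of smallest unadjusted p, the nearest of all genes were 1700028O08Rik at a distance of 0.105, Guca2b at 0.108 and Mapk14 at 0.121. Hhip lay at 0.751 from Ptch1, with 549 genes nearer. With 3 arrays such distances describe similar values and no more.

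Hedgehog ligand genes all had positive means, and none passed. Shh, the ligand of ureter epithelium, had 0.00576, 0.26 and 0.33 on arrays 1, 2 and 3, a mean of 0.20 ± 0.17 with an adjusted p of 0.515 by limma. Ihh, a ligand known from cartilage and gut, had 0.18, 1.24 and 0.34 and a mean of 0.59 ± 0.58. Shh and Ihh were positive on every array, as were 22.9% of all genes. Dhh, the ligand of Sertoli and Schwann cells, had -0.61, 0.35 and 1.40 on arrays 1, 2 and 3 and so spanned 0. Scube1, of a secreted family that includes factors for ligand release, had a mean of 0.13 ± 0.18. In this list 4 of 9 genes were measured, with a median of 0.29. At an unadjusted p under 0.05 by limma there were 0, where 19.6% of all genes passed. With 4 genes that count says little. The median was 0.0826 without array 3 and 0.54 without array 1. With array 3 turned it was -0.06, and Ihh had 0.36, Shh -0.02, Scube1 -0.09 and Dhh -0.55.

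Of the other receptors and co-receptors 6 of 7 were measured, and by limma 1 was positive and 1 negative at an unadjusted p under 0.05, beside 9.89% and 9.69% of all genes, with 0 past the adjusted threshold. Boc, a co-receptor that presents ligand to Patched, had 0.69, 0.81 and 0.37 on the 3 arrays, and its mean was 0.62 ± 0.23 with an adjusted p of 0.187 by limma. Gpc3, a glypican that in mouse competes with Patched for ligand, had -0.66, -0.73 and -0.45 and a mean of -0.61 ± 0.14 with an adjusted p of 0.178 by limma. Both kept their sign on every array but lay on opposite sides. Cdon, a co-receptor related to Boc, had -0.79, 1.93 and 0.86 on the 3 arrays, a mean of 0.67 ± 1.37, and Ptchd3 had a mean of -0.32 ± 0.42. The list's median was -0.16. It was 0.06 with array 3 turned, where Boc had 0.37, Cdon 0.0917, Ptchd3 0.13 and Gpc3 -0.31. Without array 2 it was -0.0388.

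Among ciliary regulators and factors of GLI processing 23 of 32 genes were measured. By limma 0 passed the adjusted threshold, and at an unadjusted p under 0.05 there were 2 positive and 3 negative, beside 9.89% and 9.69% of all genes. Fkbp8, a chaperone-like protein known in mouse as an inhibitor of hedgehog signalling in the neural tube, had -1.43, -1.03 and -1.64 on arrays 1, 2 and 3 and a mean of -1.37 ± 0.31. Arrb1, a beta-arrestin with a role in Smoothened transport, had a mean of -0.99 ± 0.41. On the positive side Dyrk2, a kinase of GLI proteins, had 0.78 ± 0.22, and Csnk1a1, a casein kinase that acts on GLI proteins, had 0.40 ± 0.08. These 4 genes each kept 1 sign over the arrays, and their adjusted p ran from 0.149 for Fkbp8 to 0.243 for Csnk1a1 by limma. Of the 23 genes 8 were negative and 3 positive on all arrays, beside 22.5% and 22.9% of all genes. The median of the list was -0.06, and with array 3 turned it was -0.03. In that orientation Fkbp8 had -0.27, Arrb1 -0.35, Dyrk2 0.38 and Csnk1a1 0.0721. There 0 genes of the list had an unadjusted p under 0.05 by limma, where 5.55% of all genes did. Csnk1a1 averages 2 probes, and the one of smaller SD alone had a mean of 0.18 with an unadjusted p of 0.278 in limma's fit.

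Of 30 genes reported as hedgehog targets in various tissues 28 were measured, with 3 positive and 2 negative at an unadjusted p under 0.05 by limma, beside 9.89% and 9.69% of all genes, and 0 past the adjusted threshold. These counts are near the share of all genes. Negative on all arrays were 11 and positive on all were 5, where 22.5% and 22.9% of all genes were. Foxc2, a forkhead factor of mesenchyme, had 1.03, 0.92 and 0.87 on arrays 1, 2 and 3 and a mean of 0.94 ± 0.08 with an adjusted p of 0.153 by limma. Tbx18, a marker of ureter mesenchyme, had 0.69, 0.59 and 1.30 and a mean of 0.86 ± 0.38. It averages 2 probes that differ by 1.35 in mean size over the arrays, and the one of smaller SD alone had 0.18 with an unadjusted p of 0.257 in limma's fit. The survival gene Bcl2 had a mean of 0.68 ± 0.30. Foxf2, a forkhead factor downstream of hedgehog signals in gut mesenchyme, had a mean of -0.55 ± 0.10. The genes of smallest p in this list therefore lay on both sides. The list's median was -0.26 as deposited and 0.02 with array 3 turned, where Foxc2 had 0.36, Bcl2 0.43, Foxf2 -0.13 and Tbx18 -0.0057. Leaving out array 3 brought the median to -0.0276, array 1 to -0.17 and array 2 to -0.38.

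**Figure D4:**
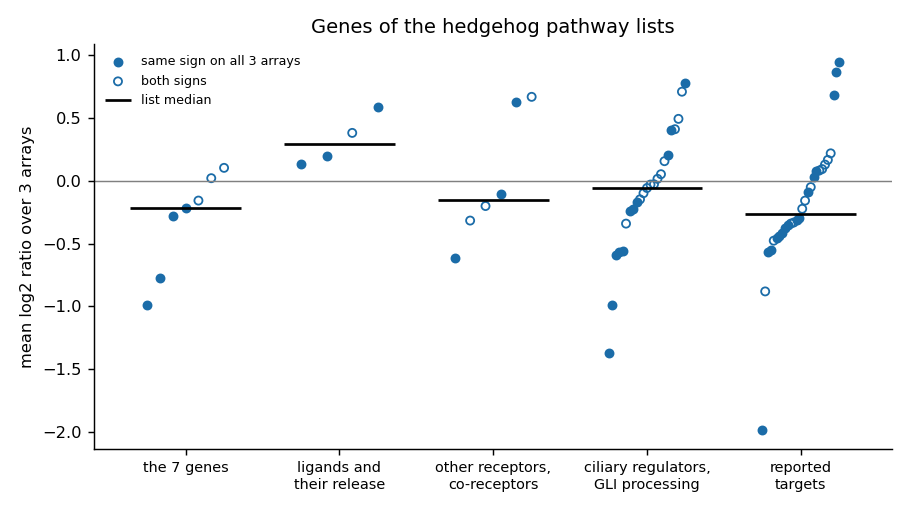
Mean log2 ratio over 3 arrays (y axis) of each measured gene in the 5 lists, with filled points for genes of the same sign on all arrays, open points for the rest and a bar at each list's median. The ligand median of 0.29 lies above 0 and the median of -0.26 of the reported targets below it, as deposited. With array 3 turned these are -0.06 and 0.02. The lowest point is Ccne1 at -1.98, named here after its value was seen.

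Markers of the tissues that the dissections could hold were given the same test. On the negative side, where most hedgehog members also lay, were limb bud and body wall mesenchyme with a median of -0.72 over 9 measured genes, somite and muscle with -0.78 over 9, gut endoderm with -1.02 over 8 and endothelium with -0.40 over 7. Their means ran from -1.95 to -0.14, from -4.96 to 0.62, from -1.68 to 0.52 and from -1.12 to 0.09, in that order. In the gut endoderm list Afp, Apoa1, Ttr, Sox17 and Cldn6 had means from -1.68 to -1.01. Foxa2 had -0.46, Foxa1 -0.12 and Cdx2 0.52, so that the median does not stand for all genes of that list. Renal stroma had a median of 1.19 over 7 genes, with means from -0.42 to 2.07. Metanephric mesenchyme had 0.12 over 10, with means from -0.50 to 1.75. The ureteric bud list had 0.18 over 11, with means from -0.59 to 1.16. Notochord and floor plate, where 4 of 7 genes were measured, had -0.20, with means from -0.46 to 0.20. Blood had -0.0024 over 6, with means from -1.10 to 0.81. Ratios carry no level in either tissue, so it cannot be read from them whether a defining marker is absent, and the part of these cell types in the hedgehog values was not tested. Turning array 3 gave medians of -0.12 for limb bud and body wall, -0.44 for somite and muscle, -0.26 for gut endoderm, -0.14 for endothelium, 0.54 for renal stroma, 0.0892 for metanephric mesenchyme and -0.14 for ureteric bud, whose sign thus turned. It gave -0.0861 for notochord and floor plate and -0.18 for blood. In that orientation 0 of the 70 marker genes had an unadjusted p under 0.05 by limma, where 5.55% of all genes did, against 34 of 70 as deposited, where 19.6% of all genes did.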

How the data were processed

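RNA of the 2 tissues was measured on 3 two-colour arrays of the Compugen mouse oligonucleotide set. Per the labels, the authors quantified spots with Imagene 5.5 and used R for lowess by print tip and for a normalization between arrays. The lowess drew on 20% of the data, and the control channel was raised to 10 where lower. Each deposited value is the log2 ratio of an array's channels, with a lowest ratio of 0.01, and its numerator and the genome build are not given in the sources used here. Intensities were not analysed here, so how bright a spot was is unknown, and precision is limited by the number of arrays.

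Gene probes with values on all 3 arrays numbered 19660. Of all gene probes, 16656 had 1 symbol in the platform annotation, 137 had several and 5119 had none. Averaging the probes that share a symbol, on each array, left 14047 genes. A two-sided test of the mean over arrays against 0 used limma 3.58.1 (lmFit, eBayes) in R 4.3.3, and p-values were adjusted by Benjamini-Hochberg over all genes or all probes, with a threshold of 0.05, and the fit was tested on simulated data first. Values after ± are SDs and intervals are limma's 95% intervals. Promoter sequences are RefSeq's for build GRCm38.p6. Plots used Matplotlib 3.10.9 in Python 3.11.15.

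The members and lists were chosen with earlier results of these data known. Named were all members, the ligands, and in each list up to 4 genes of smallest unadjusted p. Alternatives were centring, scaling, values on 2 arrays, a dye term, array 3 turned, robust or unmoderated variance, limiting ratios to between -3 and 3, other ways of joining probes and each array left out.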

Additional observations from a re-analysis of the deposited data

How the results depend on the processing

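Under all 13 alternatives run for genes and 11 for probes, 0 genes, 0 probes and 0 hedgehog members passed the adjusted threshold by limma, which says little about stability. The count of genes at an unadjusted p under 0.05, 2750 in all, was 779 with array 3 turned and 2358 with unmoderated variance. It was 1156 to 2943 with an array left out. The count of hedgehog members, 1 (Ptch1), was 0 with the dye term, 0 with the probe of smallest SD and 0 to 1 on leaving out an array. The member was Gli3 with array 3 turned or left out and Smo with unmoderated variance. Without array 1 or array 2 Ptch1 had an unadjusted p of 0.0940 or 0.103, and without array 3 it had 0.0570. The cause was not tested.

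Of 343 log2 ratios recomputed for 27 genes and probes, 327 kept their sign and 16 turned. Robust or unmoderated variance cannot move a mean. Joining probes differently cannot for genes with 1 probe, nor can limiting ratios for values between -3 and 3. The count of kept signs thus says little about stability. Array 3 turned gave 0.0897 for Sufu, -0.0208 for Shh, -0.0910 for Scube1, -0.55 for Dhh, 0.13 for Ptchd3, -0.0057 for Tbx18, 0.18 for the AK020715 probe of Ptch1 and 0.47 for the AJ308624 probe of Sufu. Centring with scaling gave -0.0016 for Gli2 and the dye term -0.11 for Gli3. With an array left out the values ran from -0.0564 to 0.0878 for Gli2, -0.13 to 0.52 for Gli3, -0.13 to 0.87 for Dhh, -0.28 to 0.29 for the AJ308624 probe and -0.39 to 0.0302 for the NM_015752 probe of Sufu. Ptch1, Hhip, Gli1 and Smo stayed negative in the 13 alternatives, with ranges of -0.97 to -0.47, -1.41 to -0.45, -0.34 to -0.18 and -0.25 to -0.06. As gene averages they were negative on every array, so leaving out an array could not turn their sign.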
